A study of Mus musculus with 6 samples.

Results

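Hes1, Hes5, Hes6, Hey1, Hey2, Heyl and Nrarp are the 7 genes of the Hes/Hey class of Notch targets followed here. They were taken by name as a gene class, by a rule that used no measured values. The class itself was chosen with earlier results of these data known, so the choice is not independent of them. All probes annotated to a RefSeq transcript of each gene were taken, dim probes included. Each gene had 1 probe in 1 spot, out of 55681 probes on the array, of which 28026 could be named. Of the 7, Hes1, Hes6, Hey1, Heyl and Nrarp were bright enough to enter the comparison of 13696 genes, while Hes5 and Hey2 were not.

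RNA came from whole tibialis anterior (TA) muscle of 9-month old mice, 3 samples of mdx and 3 of N1ICD-mdx, of the 129 × C57BL/6 background on regular chow. Both groups carry the mdx mutation and therefore lack dystrophin, the protein whose loss causes Duchenne muscular dystrophy. N1ICD-mdx mice in addition express the intracellular domain of Notch1 (N1ICD), the part of the receptor that is active without a ligand, from the Rosa26 locus after recombination by a Cre driven by the muscle creatine kinase (MCK) promoter. That Cre acts in muscle fibers, so the other cells of the muscle are not expected to carry active N1ICD, and the RNA of all cells was measured together. In such bulk RNA, fewer cells of a type and less RNA per cell cannot be told apart. Each of 3 Agilent arrays read in both colors held 1 mdx muscle in Cy3 (green) and 1 N1ICD-mdx muscle in Cy5 (red). The dyes were swapped on 0 arrays, so that dye and genotype cannot be told apart in any of the values.

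When a Notch receptor is activated, its intracellular domain moves to the nucleus, joins the DNA-binding protein RBPJ and turns on a small set of direct targets. The best known of these encode basic helix-loop-helix repressors of the Hes and Hey families, which in turn hold down differentiation genes. In muscle, Hey1 and Heyl keep satellite cells, the stem cells of the tissue, undifferentiated, and Hey genes also act in arterial endothelium and vascular smooth muscle. Nrarp is a small ankyrin-repeat protein that is induced by Notch and feeds back on it. Hes6 differs from the other members in that it is not a typical Notch target and opposes Hes1.

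The promoter windows in RefSeq (assembly GRCm38.p6) show which members carry the core letters bound by RBPJ near their start. Windows of 300 bases, 250 before and 50 after the annotated start, were at hand for 4 of the 7 members, namely Hes5, Hey2, Nrarp and Hes6. The motif GTGGGAA was searched on both strands. Hes5 and Hey2 each held 2 matches. Of the 32851 windows of this length, 0.256% held at least 2 matches and 6.38% at least 1. The window of Nrarp and both windows of Hes6 held 0. The palindrome CACGTG, an E-box of the kind that Hey proteins bind and that does not overlap the RBPJ letters, occurred once, in Nrarp, and in 7.15% of all windows. A match describes the letters only. The matches of Hes5 and Hey2 are printed here beside that of Nrarp, 30 bases each, 5′ to 3′ on the strand of the gene, with the match in capitals (TTCCCAC is GTGGGAA read on the opposite strand). Distances are those of the first base of each match, so the second match of Hey2 runs across the annotated start.
Hes5, first match, chr4:154960686-154960715, plus strand, 226 bases before the start: gggcgagcgcgTTCCCACagcccggacatt
Hes5, second match, chr4:154960829-154960858, plus strand, 83 bases before the start: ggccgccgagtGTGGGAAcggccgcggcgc
Hey2, first match, chr10:30842972-30843001, minus strand, 207 bases before the start: gcgcggtggcaTTCCCACgcctctgccaac
Hey2, second match, chr10:30842769-30842798, minus strand, 4 bases before the start: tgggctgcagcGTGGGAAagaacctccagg
Nrarp, E-box match, chr2:25180638-25180667, plus strand, 108 bases before the start: ccgccccgccccCACGTGggcaccacccaa

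No gene on the array passed an adjusted p under 0.05, so no member did. In limma's fit of the 3 within-array ratios, 889 of the 13696 genes (6.49%) had an unadjusted p under 0.05, and 131 (0.956%) were also at least 1.5-fold different, the thresholds of the study's methods. The arrays differed in spread. The SD of the log2 ratios over genes was 0.24 and 0.24 on arrays 1 and 3 but 0.54 on array 2, and the ratios of arrays 1 and 2 correlated across genes at r = 0.0034, against 0.358 for arrays 1 and 3. Of all spots, 45.9% to 51.1% were well above background in mdx and 51.6% to 57.3% in N1ICD-mdx. The channels differed in scale, with median spot signals of 53, 49 and 51.5 units in mdx (Cy3) and 25, 23 and 27 units in N1ICD-mdx (Cy5). A brighter or dimmer channel before dye normalization therefore gives no direction between the groups. None of the member spots was saturated or an outlier. The labels number the replicates without saying that they are separate animals, so p-values measure the spread between these 3 arrays alone. An exact permutation of signs over 3 arrays, counted on both sides, cannot give a p below 0.25, and all 7 members were at that value.

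Among the classical Hes repressors, Hes1 (NM_008235) differed little between the groups. Hes1 is the most widely used Notch target and a repressor that oscillates in many progenitor cells. Its spot stood 34, 28 and 18 intensity units above local background in mdx muscle and 24.5, 27 and 26 units in N1ICD-mdx muscle on arrays 1, 2 and 3, before any normalization. The groups overlapped, and N1ICD-mdx was the brighter channel on array 3 alone. After background correction and within-array normalization, its log2 ratio of N1ICD-mdx over mdx was 0.007, 0.10 and 0.21 on the 3 arrays. The mean was 0.11 ± 0.09 (limma SE, n = 3 arrays, adjusted p = 0.743), with a 95% interval from -0.14 to 0.35, which holds 0. Under this setting the interval did not reach 1.5-fold in either direction. It is no bound on the fold of Hes1, because the normalization adds an offset of 50 units that is larger than these signals. With an offset of 10 the mean of Hes1 was 0.21 ± 0.14 (limma SE). With the signals as processed by the scanner software, the ratio of Hes1 was -0.09, 0.47 and 0.60, and array 1 then went the other way. The mean of these 3 ratios was 0.33 ± 0.20 (limma SE, adjusted p = 0.729).

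Hes5 (NM_010419), the second classical repressor and best known from neural progenitors, lay at the limit of detection. Its spot stood -1, -3 and 0.5 units above local background in mdx muscle and 7, 4 and 5 units in N1ICD-mdx muscle. It was well above background in 0 of 3 mdx channels and in 1 of 3 N1ICD-mdx channels, that of array 1. By the weaker flag of a positive and significant signal it was detected in all 6 channels. The 308 negative control spots, which carry no mouse sequence, put these levels in context. In mdx muscle 57, 23 and 10 of them were at or above Hes5 on arrays 1, 2 and 3, and in N1ICD-mdx muscle 2, 11 and 2 were. The N1ICD-mdx signal of Hes5 was thus above nearly all negative controls, and the mdx signal was within their upper range.

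The ratio of Hes5 differed widely between ways of treating the background. With the offset of 50 units that the normalization adds to both channels, its log2 ratio was 0.18, 0.05 and 0.04, with a mean of 0.09 (1.06-fold) and an adjusted p of 0.646 in the limma fit without a filter on dim probes. Hes5 was not well above background in any mdx muscle nor in 2 of the 3 N1ICD-mdx muscles, so that neither this ratio nor one against the dimmest measurable mdx probes (0.08 on the log2 scale) is a bound on its fold. With processed signals the log2 ratio was 1.21, 1.18 and 0.79, a mean of 1.06 (2.08-fold, limma adjusted p = 0.208). The background-subtracted signals that the software wrote before dye normalization were 4.86, 3.95 and 4.37 units in mdx and 6.69, 4.44 and 4.51 units in N1ICD-mdx, so the channels were closer there than after it.

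**Figure D1:**
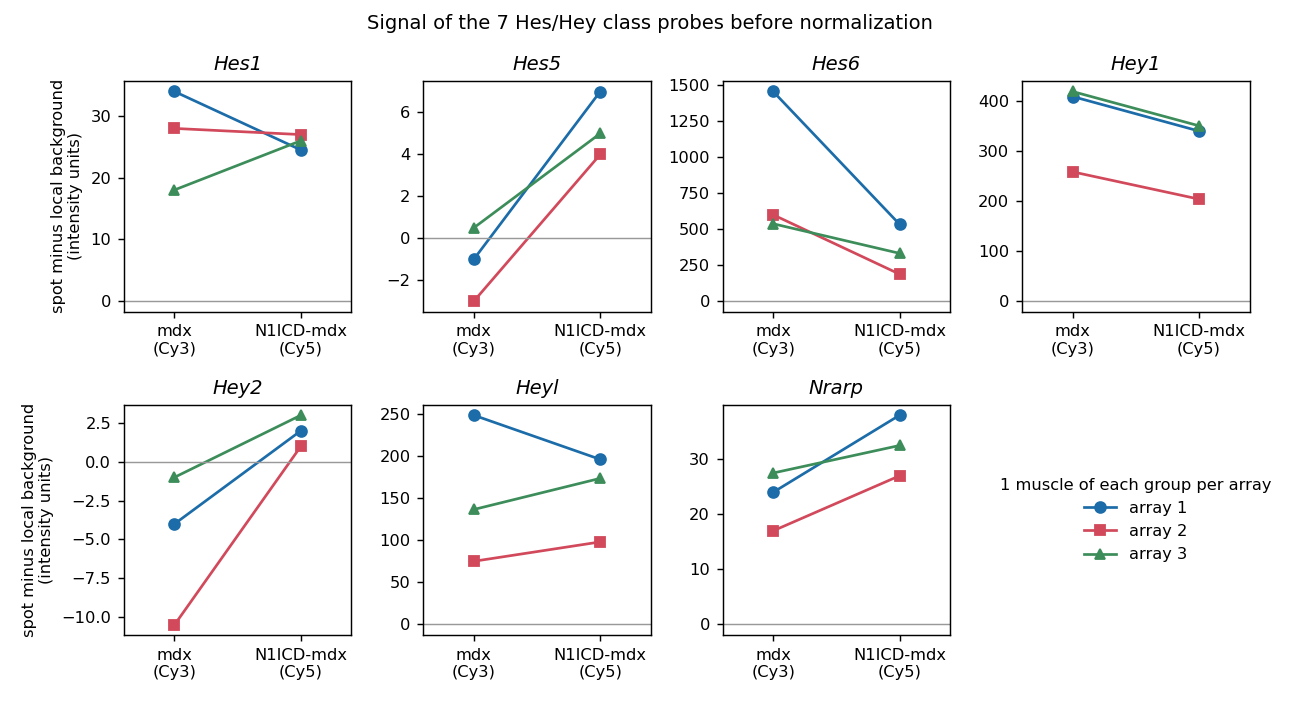
Spot signal minus local background in intensity units (vertical axes, a separate scale for each gene) of the 7 members in mdx (Cy3) and N1ICD-mdx (Cy5) muscle, before normalization, with a line for each of the 3 arrays. Hes6 stood at 1457, 598.5 and 536 units in mdx and at 532, 185 and 330 units in N1ICD-mdx, and Hes5 and Hey2 lay between -10.5 and 7 units.

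Of the Hey repressors, Hey1 (NM_010423) was well above background in all 6 channels. Its signal was 408, 257.5 and 418 units above background in mdx and 339, 203 and 349.5 units in N1ICD-mdx. Array 2 was the dimmest in both groups, the groups overlapped, and mdx was the brighter channel on each array before normalization. Normalized, the log2 ratio was 0.27, 0.15 and 0.21, higher in N1ICD-mdx on 3 of 3 arrays, with a mean of 0.21 ± 0.08 (1.16-fold, 95% interval -0.02 to 0.44, limma adjusted p = 0.704, exact permutation p = 0.25). With median centring in place of loess the mean of Hey1 was -0.036, below 0, while the median of all genes was at -0.18 under that setting.

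Heyl (NM_013905) had the highest mean log2 ratio of the 5 members in the comparison with loess, and Nrarp with processed signals. Its signal was 248.5, 75 and 136.5 units in mdx and 196, 98 and 173.5 units in N1ICD-mdx. The groups overlapped, because the mdx muscle on array 1 was brighter than any N1ICD-mdx muscle before normalization. The log2 ratio was 0.19, 0.54 and 0.60, so array 1 gave the smallest of the 3 differences. The mean was 0.44 ± 0.12 (1.36-fold, 95% interval 0.12 to 0.76), with an unadjusted limma p under 0.05 and an adjusted p of 0.704, and Heyl stood at place 271 of 13696 genes ordered from the highest ratio. It missed the 1.5-fold threshold with loess but not with processed signals, where its mean was 0.61 (1.53-fold, adjusted p = 0.729).

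Hey2 (NM_013904), which is known from arterial endothelium and the heart, was not well above background in any of the 6 channels. Its spot stood at -4, -10.5 and -1 units in mdx and at 2, 1 and 3 units in N1ICD-mdx. Negative controls at or above it numbered 140, 151 and 18 of 308 in the mdx channels and 18, 48 and 4 in the N1ICD-mdx channels. The mdx spot was thus in the middle of the controls on arrays 1 and 2. The flag for a positive and significant signal, a weaker test than well above background, was set on array 3 alone in mdx and on all 3 arrays in N1ICD-mdx. The ratios of Hey2 thus compare spots that were not well above background in either group, and they are given as values with no fold. They were 0.07, 0.05 and 0.01 after normalization and 0.52, 0.97 and 1.07 with processed signals (limma adjusted p = 0.738 and 0.208 without a filter on dim probes).

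The ratios of Hes5 and Hey2 have to be read against other dim probes on these arrays. The dim probes counted here, named or not, were like both genes not well above background in any mdx channel nor in all N1ICD-mdx channels. Of these 26208 probes, all outside the comparison, 6.33% were higher in N1ICD-mdx on all 3 arrays with processed signals. Among them were 5637 that, again like both genes, were positive and significant against background in all 3 N1ICD-mdx channels. With processed signals, 29.4% of them were higher in N1ICD-mdx on all 3 arrays, and 28.6% had a mean at least 1.5-fold higher. With the offset and loess, 38.1% were higher on all 3 arrays. A condition on the N1ICD-mdx channel alone, as in this set, favors ratios above 0. The 308 negative controls had median log2 ratios of -0.60, -0.34 and -0.49 with processed signals. Of them, 2, 5 and 2 were at or above the ratio of Hes5, and 6, 10 and 2 at or above that of Hey2. Only 14, 20 and 8 of the controls were positive and significant in N1ICD-mdx, whereas both genes were on all 3 arrays. The controls are therefore not a like set for these ratios, and nothing is drawn from the counts.

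**Figure D2:**
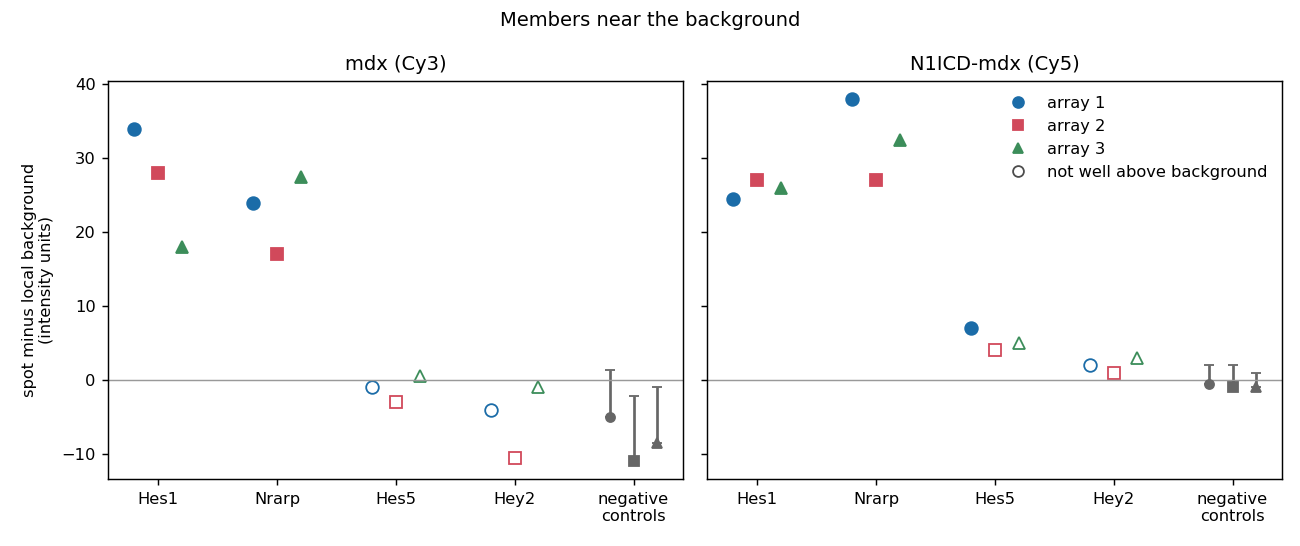
Spot signal minus local background in intensity units (vertical axis) for the 4 dimmest members in mdx (left) and N1ICD-mdx (right), filled where the spot was well above background and open where it was not. The grey markers give the median of the 308 negative controls on each array, and the bars reach to their 95th percentile. Hes1 and Nrarp stood above that percentile in all 6 channels, whereas Hes5 and Hey2 lay between -10.5 and 0.5 units in mdx and between 1 and 7 units in N1ICD-mdx.

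Nrarp (NM_025980), the feedback regulator, was dim but well above background in all 6 channels. Its signal was 24, 17 and 27.5 units in mdx and 38, 27 and 32.5 units in N1ICD-mdx, the brighter channel on 3 of 3 arrays before normalization. In the background-subtracted signals of the software, which are not dye-normalized, mdx was the brighter channel on array 3, with 36.8 units against 32.3 units in N1ICD-mdx. Arrays 1 and 2 had 26.3 and 22.7 units in mdx and 39.7 and 26.7 units in N1ICD-mdx. The log2 ratio was 0.40, 0.26 and 0.19, with a mean of 0.28 ± 0.09 (1.22-fold, 95% interval 0.04 to 0.53, unadjusted limma p under 0.05, adjusted p = 0.704). On the normalized log2 scale the levels of Nrarp ran from 6.26 to 6.37 in mdx and from 6.56 to 6.66 in N1ICD-mdx. The groups did not overlap, as was the case upward for 7.56% of all genes tested. Among the 5 members in the comparison Nrarp was the only one without overlap. The levels of the dim Hes5 did not overlap either (5.88 to 5.96 and 6.00 to 6.05), but Hes5 is not among the genes of that share. Its spot was near background in mdx, and no such share was computed for dim probes. The signal of Nrarp is smaller than the 50 units that are added to it, and its mean ratio was 0.52 with an offset of 10 and 0.83 (1.78-fold, adjusted p = 0.729) with processed signals.

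Hes6 (NM_019479) was, with loess and an offset of 50, the only member that was lower in N1ICD-mdx and the only one past 1.5-fold. With processed signals Nrarp and Heyl also passed that size, upward. The mean ratios of Hes5 and Hey2 were that large too, but they come from spots near background and are not read as folds. Among dim probes positive and significant in all 3 N1ICD-mdx channels, 28.6% had such a mean. The signal of Hes6 was 1457, 598.5 and 536 units in mdx and 532, 185 and 330 units in N1ICD-mdx. On each array N1ICD-mdx was the dimmer channel before normalization, as it also was for Hey1. After normalization the groups overlapped, with log2 levels of 10.13, 9.40 and 8.89 in mdx and 9.32, 8.41 and 8.72 in N1ICD-mdx, and it was the mdx muscle on array 1 that stood highest. The log2 ratio was -0.80, -0.99 and -0.17, and array 3 contributed little. The mean was -0.65 ± 0.19, or 1.57-fold lower (95% interval -1.16 to -0.15), with an unadjusted limma p under 0.05 and an adjusted p of 0.704. At 1.5-fold and an unadjusted p under 0.05, Hes6 was 1 of 66 genes lower, or 0.482% of those tested. This call was lost without array 1 (mean -0.58) and without array 2 (mean -0.49). It was also lost with array quality weights (mean -0.35) and, at an unchanged mean, with a variance trend and with channels not paired by array.

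Across the class, 6 of the 7 members were higher in N1ICD-mdx on all 3 arrays after loess and Hes6 was lower on all 3. Of all 13696 genes tested, 17.6% were higher and 16.4% lower on all 3 arrays. Of the 26208 dim probes outside the comparison, 16.1% were higher. Of the 5637 of these that were positive and significant in all 3 N1ICD-mdx channels, as Hes5 and Hey2 were, 38.1% were higher. Median centring put the mean of Hey1 below 0, though above the median of all genes under that setting, and processed signals put Hes1 below 0 on array 1. The means of the other members kept their signs under both. At an unadjusted p under 0.05, Heyl and Nrarp were among 554 genes higher (4.04%), and Hes6 was among 335 genes lower (2.45%). By the methods' t-test, run on the 6 normalized levels, Nrarp alone of the 5 had an unadjusted p under 0.05 (adjusted p = 0.518 over all genes).

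**Figure D3:**
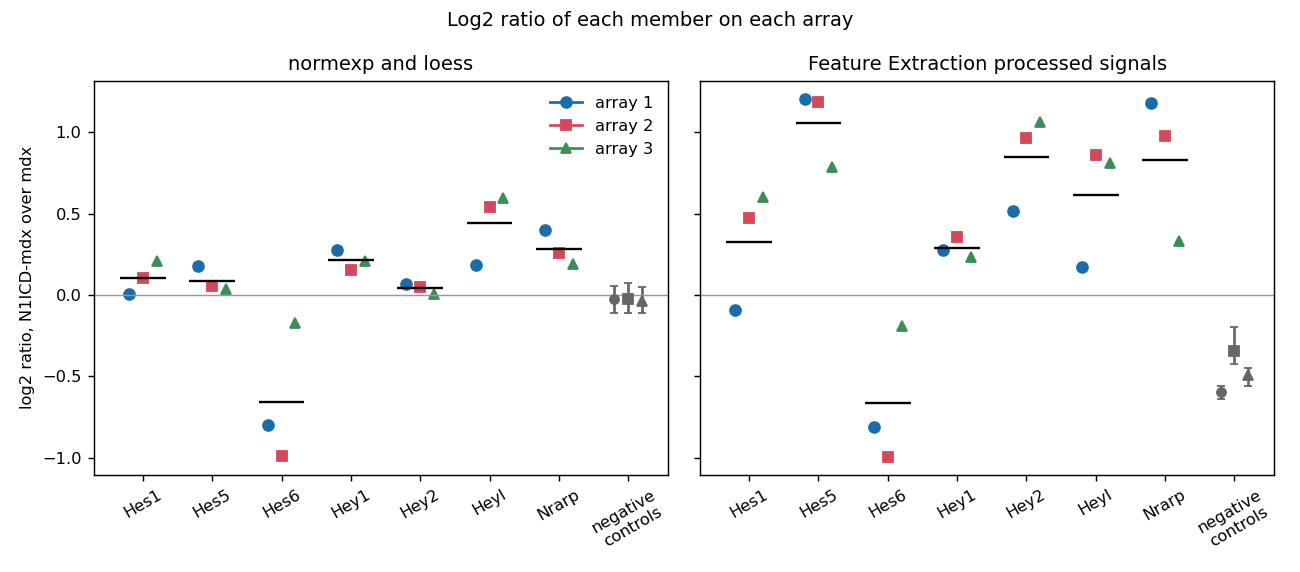
Log2 ratio of N1ICD-mdx over mdx (vertical axis) of each member on each of the 3 arrays after normexp and loess (left) and with Feature Extraction processed signals (right). Black lines are means, and grey markers with bars give the median and the 5th to 95th percentile of 308 negative controls. 6 of the 7 members lay above 0 on every array at left, Hes6 lay below, and the means of Hes5, Hey2 and Nrarp were 1.06, 0.85 and 0.83 at right against 0.09, 0.04 and 0.28 at left. The mean of Hey2 at right rests on mdx spots below background on arrays 1 and 2.

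The genes whose levels across the 6 muscles ran closest to each member were looked up among 12262 genes well above background in all 6 channels, by the root mean square (RMS) difference of mean-centred log2 levels. For Hes6 these were Cdk5r1 (an activator of the kinase Cdk5; RMS 0.13), Ncam1 (neural cell adhesion molecule; 0.17) and Chrna1 (the alpha subunit of the muscle acetylcholine receptor; 0.17). Their log2 ratios were -0.48, -0.38 and -0.52, all smaller in size than that of Hes6. The level of Hes6 itself had an SD of 0.61 over the 6 muscles, so the differences from these neighbours were a fraction of it. Heyl had Nos2 (inducible nitric oxide synthase), Igdcc4 and Cox5b (a subunit of cytochrome c oxidase) as its nearest, at RMS values of 0.11, 0.11 and 0.12 against an SD of 0.38. The nearest to Hey1 were Rftn2, Lzts2 and Rab3gap1 (RMS 0.03 to 0.04, SD 0.17), to Nrarp Zmiz1, Slc18b1 and Rnf19a (0.02 to 0.03, SD 0.16), and to Hes1 Chfr, Pigm and Zfp462 (0.03 to 0.05, SD 0.13). For the last 3 members the levels varied so little that many genes of small spread come close.

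The rest of the pathway was read from a list of ligands, receptors, nuclear partners, processing genes, other reported targets and genes repressed by Hes and Hey proteins. Of its 91 genes, 81 were in the comparison, 36 with a positive and 45 with a negative mean ratio and a median log2 ratio of -0.03, against -0.0034 over all genes. Among them 2 had an unadjusted p under 0.05 in the upward direction and 3 in the downward direction, where 4.04% and 2.45% of all genes did, and 1 also passed 1.5-fold, as did 0.956% of all genes. Ligands gave no call. Dlk1, a non-canonical ligand, had a log2 ratio of 0.40 ± 0.16, Jag1 of 0.19 ± 0.09, Dll4 of 0.11 ± 0.10, Dlk2 of -0.14 ± 0.13 and Dll1 of -0.04 ± 0.08 (limma SE, all with an unadjusted p above 0.05).

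The receptors gave no call either. Notch1 had log2 ratios of -0.12, -0.10 and -0.15 (mean -0.12 ± 0.08, limma adjusted p = 0.710), so its probe was not brighter in N1ICD-mdx. Whether that probe lies in the part of Notch1 that the transgene holds is not given in the sources used here, and its level therefore checks nothing about the transgene. Notch4 was at 0.18 ± 0.14, Notch2 at -0.31 ± 0.23 and Notch3 at 0.02 ± 0.16. All 3 of these were lower on array 2 and higher on array 1.

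Of the nuclear partners, Rbpj, the DNA-binding partner of N1ICD, was lower on 3 of 3 arrays, at -0.29, -0.61 and -0.32. Its mean of -0.41 ± 0.11 had an unadjusted limma p under 0.05 and an adjusted p of 0.704. The corepressors Tle2 and Tle3 had means of -0.20 ± 0.09 and -0.18 ± 0.09 and the histone demethylase Kdm5a -0.17 ± 0.09, and did not pass. In receptor processing and turnover, Itch, a ubiquitin ligase that acts on Notch, had a mean of 0.26 ± 0.08 and Mfng, a glycosyltransferase that tunes the response to ligands, 0.24 ± 0.09, both with an unadjusted p under 0.05. The protease Furin and the ubiquitin ligase Mib1 had means of -0.26 ± 0.12 and -0.37 ± 0.19 and did not pass.

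None of the other Hes-type genes passed, with means of 0.03 for Hes7, 0.02 for Bhlhe41 and -0.0043 for Hes2. Bhlhe40 had ratios of -0.34, 0.68 and -0.32, so that its mean near 0 came from arrays of opposite sign. Of 20 measured genes reported as Notch targets elsewhere, Myc alone had an unadjusted p under 0.05, at -0.41 ± 0.15. Trib2, Il2ra and Sox9 had means of 0.27, 0.19 and -0.17 and did not pass.

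Among genes that Hes and Hey proteins are known to repress, Myog, the myogenin gene that drives the last steps of muscle differentiation, was the 1 gene past 1.5-fold. It had log2 ratios of -1.14, -1.41 and -0.27, a mean of -0.94 ± 0.25 (unadjusted p under 0.05, adjusted p = 0.704). As in Hes6, the ratios of arrays 1 and 2 were far from 0 and that of array 3 was near it. Without array 1 the pathway list had 0 such genes, and without array 2 or 3 it had 2. Myod1 was at -0.02, 0.99 and -0.07, so array 2 alone set its mean of 0.30 ± 0.25. Gata4 and Cdkn1b had means of 0.11 and -0.07, and Myf5, Atoh1, Neurog2 and Neurog3 were not bright enough to enter the comparison.

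**Figure D4:**
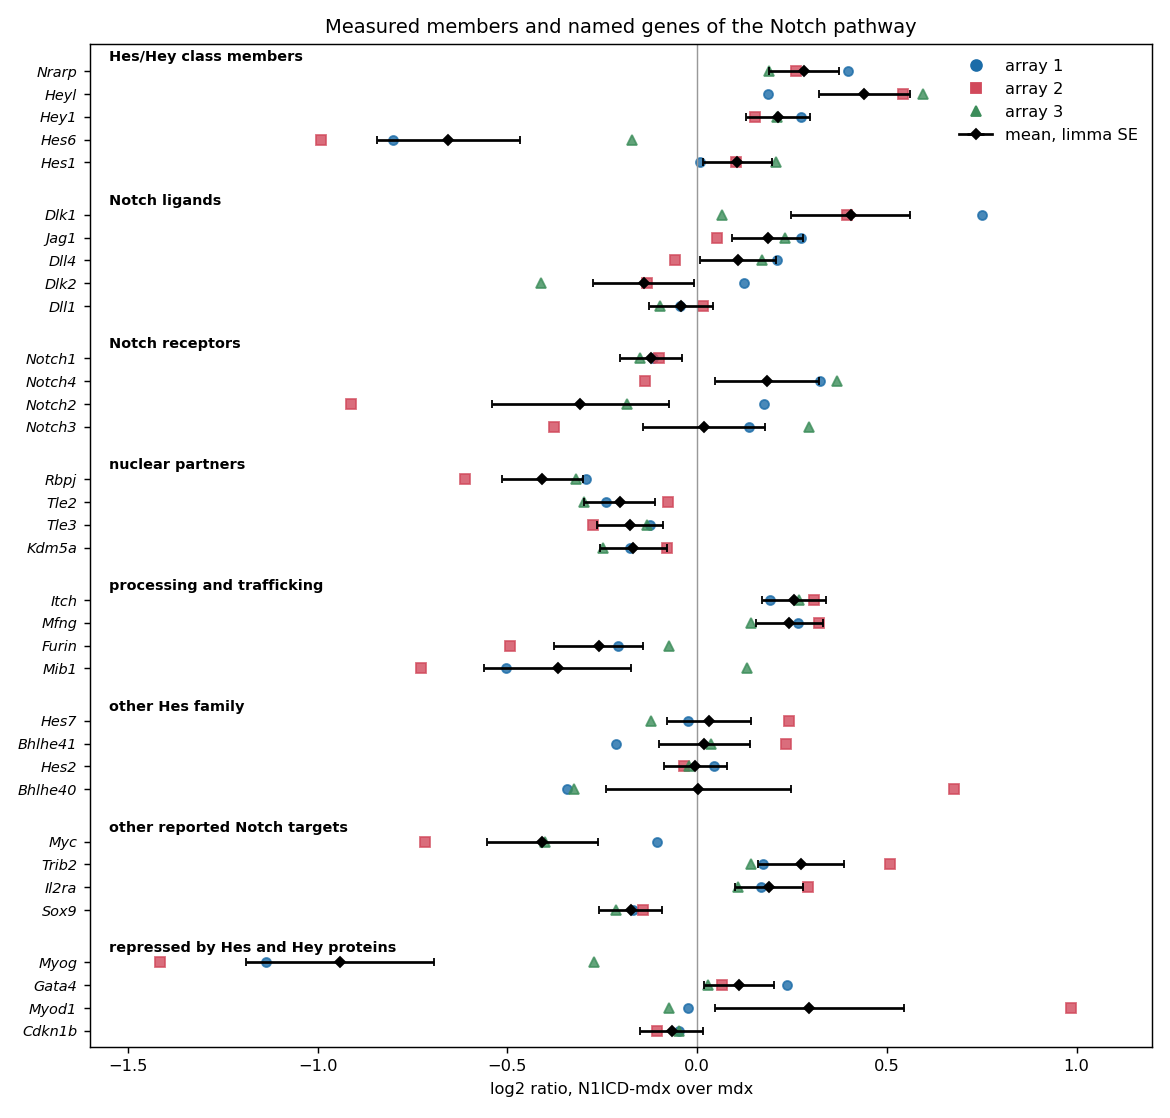
Log2 ratio of N1ICD-mdx over mdx (horizontal axis) on each of the 3 arrays (colored markers) with the mean and limma SE (black) for the 5 members in the comparison and the named genes of the Notch pathway list. Hes6 and Myog had the lowest means, -0.65 and -0.94, with array 3 nearest to 0 in both, and Heyl and Dlk1 the highest, 0.44 and 0.40.

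Several cell types of the muscle express Hes and Hey genes, and their markers are given beside the members. Endothelial markers had a median log2 ratio of 0.08, with 6 of 10 above 0 (Kdr -0.59, Cdh5 0.50), and their summed log2 level ran from 13.67 to 14.01 in mdx and from 13.70 to 14.05 in N1ICD-mdx. Arterial markers had a median of 0.15 with 4 of 6 above 0 (Gja5 0.27, Sox17 0.17), and summed levels of 10.44 to 10.68 and 10.38 to 10.93. Pericyte and smooth muscle markers had a median of 0.11 with 7 of 10 above 0 (Tagln -0.37, Kcnj8 0.22), and summed levels of 13.11 to 13.24 and 13.03 to 13.42. The ranges of the groups overlapped in all 3 of these vascular lists.

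Satellite cell markers had a median of -0.02, with 3 of 7 measured genes above 0 (Chodl 0.20, Calcr 0.19) and others below it (Vcam1 -0.48, Fgfr4 -0.19, Cdh15 -0.07), summed levels of 11.27 to 11.62 in mdx and 11.15 to 11.56 in N1ICD-mdx, and Myf5 dim in every channel. The defining marker Pax7 was at -0.02. All 10 muscle fiber markers had a positive mean, with a median of 0.44 (Acta1 0.92, Tnni2 0.73) and summed levels of 18.77 to 19.03 in mdx and 19.32 to 19.55 in N1ICD-mdx, which did not overlap. Myeloid markers had a median of -0.66 with 1 of 10 above 0 (Cx3cr1 -1.38, C1qb -0.79), which was -1.72 on array 2 and -0.18 without it, at summed levels of 13.81 to 15.14 in mdx and 13.50 to 14.19 in N1ICD-mdx. Hes6 and Myog were also lowest on array 2, at -0.99 and -1.41, and stood at -0.80 and -1.14 on array 1, where the myeloid median was -0.16. The part of these cell types in the ratios of the members was not tested.

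The remaining lists add the following values. Fibroblast markers had a median of 0.08 (Dcn 0.44, Ly6a 0.29), adipocyte markers of 0.46 (Fabp4 0.55, Cidec 0.46; -0.32 on array 1), Schwann and nerve markers of 0.14 (S100b 0.23) and the 2 lymphocyte markers bright enough to be measured of -0.34 (Cd3e -0.48, Cd4 -0.20). Besides the muscle fiber level, the summed adipocyte level (13.53 to 13.95 in mdx and 14.13 to 14.52 in N1ICD-mdx) and the summed lymphocyte level (9.339 to 9.72 and 9.09 to 9.337) did not overlap between the groups. A sum is weighted to its brightest markers. On array 1 the summed adipocyte level was 13.53 in mdx and 14.30 in N1ICD-mdx, with Fabp4 at 0.83, although the marker median there was -0.32. How often such sums separate between 3 and 3 muscles was not tested. Without array 2 the median was 0.12 for adipocyte, 0.34 for fibroblast, 0.23 for endothelial, 0.18 for pericyte and smooth muscle and 0.0038 for satellite cell markers. All 10 muscle fiber markers were well above background in all 6 muscles, which is what the label of the tissue calls for.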

How the data were processed

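TA muscle RNA of 3 mdx and 3 N1ICD-mdx samples was hybridized in pairs to 3 arrays. The authors scanned the arrays and deposited intensity values from Agilent Feature Extraction (11.5 per the labels, 11.5.1.1 per the file headers). These are median pixel signals of spot and local background, not normalized, and processed signals, background-subtracted and dye-normalized. Array 1 has its processed signals at 3 significant digits. The software's own log ratios, errors and p-values, also in the files, were not used.

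Median signals were used in place of the planned means, which the files do not hold. They were background-corrected (normexp, offset 50) and loess-normalized within each array, control spots having weight 0, in limma 3.58.1 under R 4.3.3 (package data.table, version 1.17.8). Spots marked as outliers were dropped and replicate spots averaged. Probes passed the filter if either channel was well above background on each of the 3 arrays. They were named by transcript through RefSeq (GRCm38.p6), and the brightest passing probe represented its gene. Limma's moderated intercept model was fitted to the 3 log2 ratios, with Benjamini-Hochberg adjustment over 13696 genes. Single-channel levels are after loess and Aquantile. Arrays have no read depth; 3 arrays set the precision. Muscles of the same replicate number shared an array, which is the source of the pairing.

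The members and lists were chosen with earlier results of these data known. Named are all members, up to 4 genes of the smallest unadjusted p in each part of the pathway list, Notch1, Rbpj, Jag1, Dll1 and Dll4, the 3 nearest genes of each member and 2 genes of each marker list. Pax7, Myf5, Vcam1, Fgfr4, Cdh15 and the dim targets of repression were chosen after their values were seen. Some genes of the lists are not reported here. The procedure was tested on simulated data. Other settings tried were processed signals, no correction of the background, offset 10, median centring, dropping the filter, requiring both channels, averaging the probes of a gene, a variance trend with robust variances, array quality weights, leaving out each array, no replicate block and the methods' t-test.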

Additional observations from a re-analysis of the deposited data

How the results depend on the processing

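Of 13 alternatives, 5 cannot move the mean of a gene with 1 probe. Under the other 8, Hes6, Heyl, Nrarp and Hes1 kept the sign of their mean, and Hey1 turned to -0.036 with median centring. No member passed an adjusted p under 0.05 under any of the 13. Leaving out each array in turn moved Hes6 between -0.90 and -0.49, Heyl between 0.36 and 0.57, Nrarp between 0.22 and 0.33, Hey1 between 0.18 and 0.24 and Hes1 between 0.06 and 0.16. Genes at 1.5-fold and an unadjusted p under 0.05 numbered 131 and became 443 with processed signals, 222 with an offset of 10, 421 with median centring (30 of them higher), 57 with a variance trend (all higher), 206 with array quality weights, 67 by the methods' t-test and 185 to 207 without each array. At an adjusted p under 0.05 the count of 0 became 1 with array weights and 0 to 3 without each array, the 3 without array 2. The pathway list count of 1 became 5 with processed signals, 3 with an offset of 10, 2 with median centring, 0 with a variance trend, 0 with array weights and 0 to 2 without each array. The log2 level of Hes5 over the dimmest measurable mdx probes, 0.08 and no bound since 2 of 3 N1ICD-mdx channels were dim, became -0.60 with processed signals, 0.050 without background correction, 0.21 with an offset of 10 and 0.045 to 0.10 without each array. The cause of these moves was not tested.

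Without the replicate block, that is with the 6 channel levels compared as groups, 1 gene passed an adjusted p under 0.05, 124 passed the 1.5-fold rule and 0 of the pathway list did. Of the members, Nrarp alone then had an unadjusted p under 0.05, and the means were unchanged. The methods' t-test called 910 genes at an unadjusted p under 0.05 and 0 after adjustment.

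Signal over background limits Hes5 and Hey2, which were not well above background in any mdx channel, and the offset of 50 units shrinks the ratios of Hes1 and Nrarp, whose signals lie below it. With 1 probe a gene, no second probe checks any member. No array had the dyes swapped.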
